A study of Homo sapiens with 6 samples.

Results

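The genes described here make and police the deoxynucleoside triphosphates (dNTPs), the building blocks of DNA. They are 9 genes, RRM1, RRM2, RRM2B, TYMS, TK1, DCK, SAMHD1, DUT and DCTPP1, among the 19053 genes with a symbol in the deposited table. They were found by matching the RefSeq protein accession of each row to its gene, version ignored, which gave 16 of the 109018 rows. The set was chosen by read counts and fold changes of these same libraries, those of the RRM2B rows above all. The differences of the 9 genes between the groups are therefore given as a description, with no p-value printed, and nothing is supported with them or with the counts of members past a threshold.

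All libraries came from K562, a BCR-ABL-positive human leukemia line of erythroid character that lacks functional p53. Lines stably carrying a lentiviral hairpin against lncRNA-IUR-5, which the labels call lncRNA-IIRX, gave 3 libraries (sh-IUR-5), and lines carrying a hairpin against luciferase, a gene that human cells lack, gave 3 control libraries (sh-luc). The vector was pSIH-H1-GFP in both groups. The methods speak of independent groups of cell lines, but the labels do not say whether the 3 libraries of a group came from separate infections, so an effect of the hairpin and a difference between lines cannot be told apart. Reads counted on rows numbered 21023739 to 31481109 per library. Library 1 stood apart from libraries 2 and 3 of its group, with a chi-square per row of 2.73 to 2.86 in sh-luc and 4.05 to 4.49 in sh-IUR-5 where sampling noise alone gives 1, against 1.81 and 1.47 between libraries 2 and 3. Rows are proteins, so the level of lncRNA-IUR-5 was not analysed here. All 6 erythroid markers examined were present (GATA1, TAL1, HBG1, HBG2 and TFRC among them), and 3 were higher and 3 lower in sh-IUR-5. Of 8 markers of lymphoid, epithelial and fibroblast cells, 7 lay under the minimum level used here, with MS4A1 and CDH1 at 0 reads, and their summed level was 93.5 to 108 RPKM in sh-luc and 83.0 to 106 in sh-IUR-5 libraries, nearly all of it EPCAM.

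Ribonucleotide reductase turns ribonucleotides into deoxyribonucleotides. Its large subunit is RRM1, its S-phase small subunit is RRM2, and RRM2B (p53R2) is an alternative small subunit that p53 can induce and that serves DNA repair and mitochondrial DNA in resting cells. Thymidylate synthase (TYMS) makes dTMP from dUMP. Thymidine kinase 1 (TK1) and deoxycytidine kinase (DCK) salvage deoxynucleosides, and DCK also activates the leukemia drug cytarabine. SAMHD1 cleaves dNTPs back to deoxynucleosides, DUT removes dUTP, and DCTPP1 removes dCTP and its modified forms.

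Promoter windows of 300 bases, from 250 before to 50 after an annotated start, were read from RefSeq (GRCh38.p14) for 8 of the 9 genes, RRM2B excepted, 13 windows in all. The window with the most matches is shown for RRM2, TYMS and DUT, S-phase genes of which RRM2 was higher, TYMS near level and DUT lower in sh-IUR-5 cells. Capitals mark matches on either strand to an E2F motif (TTTCGCGC, TTTCCCGC, TTTGGCGC or TTTGCCGC), to CCAAT, or to the STAT5 motif TTCNNNGAA, chosen because STAT5 is the factor that the study ties to lncRNA-IUR-5. No marked match overlaps another.
RRM2 (chr2:10122489-10122788, plus strand): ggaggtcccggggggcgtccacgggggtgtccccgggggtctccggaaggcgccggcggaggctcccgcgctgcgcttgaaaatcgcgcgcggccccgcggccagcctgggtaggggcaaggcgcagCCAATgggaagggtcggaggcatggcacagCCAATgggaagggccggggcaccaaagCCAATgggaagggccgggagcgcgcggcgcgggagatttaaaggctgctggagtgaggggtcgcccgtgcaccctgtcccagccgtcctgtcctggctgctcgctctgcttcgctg
TYMS (chr18:657403-657702, plus strand): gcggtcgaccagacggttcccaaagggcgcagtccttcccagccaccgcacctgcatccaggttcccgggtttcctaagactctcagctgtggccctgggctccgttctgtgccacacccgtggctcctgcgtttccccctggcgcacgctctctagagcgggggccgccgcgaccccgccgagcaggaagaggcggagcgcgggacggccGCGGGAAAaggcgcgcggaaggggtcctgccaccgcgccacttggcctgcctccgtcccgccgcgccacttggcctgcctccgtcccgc
DUT (chr15:48331947-48332246, plus strand): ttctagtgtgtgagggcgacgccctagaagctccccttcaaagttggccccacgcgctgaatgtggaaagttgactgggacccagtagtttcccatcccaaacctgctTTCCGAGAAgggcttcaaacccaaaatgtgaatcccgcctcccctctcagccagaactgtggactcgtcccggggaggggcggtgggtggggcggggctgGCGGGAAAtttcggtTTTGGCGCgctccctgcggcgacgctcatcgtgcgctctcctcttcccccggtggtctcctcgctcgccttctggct

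The RRM2 window shown held 3 CCAAT boxes and its other window 1, the single TYMS window held 1 E2F match, and the DUT window shown held 2 E2F matches and 1 STAT5 match, while the other 3 DUT windows held none of the 3 motifs. Of the 13 windows, 3 held the E2F motif (1 each of DCK, DUT and TYMS), 5 held CCAAT and 2 held the STAT5 motif (DCTPP1 and DUT). Among all 35116 windows in the same table, 3.31% held the E2F motif, 34.6% held CCAAT and 7.66% held the STAT5 motif. A match is a run of letters and not a measured binding site.

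In hg38 (GENCODE 44), RRM1 spans chr11:4094707-4138932 (plus strand), RRM2 chr2:10120698-10211725 (plus) and RRM2B chr8:102204502-102238961 (minus). TYMS spans chr18:657653-673578, DUT chr15:48331011-48343373 and DCK chr4:70992538-71030914, all plus. TK1 spans chr17:78174091-78187233, SAMHD1 chr20:36890229-36951893 and DCTPP1 chr16:30423615-30430030, all minus. Exons of other genes cover coding bases of TYMS (ENOSF1 and TYMSOS), RRM1 (RRM1-AS1), DUT (DUT-AS1), SAMHD1 (TLDC2) and DCTPP1 (ZNF771) on the opposite strand, and of DCK (MOB1B) on the same strand. The sources used here do not say whether strand was used in counting, so reads of such partners cannot be told apart. GENCODE also lists 8 DUT, 3 RRM2 and 2 TYMS pseudogenes, and how reads shared with them were counted is not given in the sources used here.

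Levels are given as TMM-scaled RPKM, which is reads divided by the length of the row and by the size of the library after TMM scaling (trimmed mean of M values, which sets the bulk of genes level between libraries), summed over the rows of a gene. A gene or row was tested where its deposited RPKM averaged at least 1. In sh-luc cells TYMS was highest with 395 ± 18.8 (SD, n = 3), followed by DUT with 186 ± 9.43, RRM2 with 123 ± 10.2, RRM1 with 114 ± 7.62, DCTPP1 with 93.4 ± 20.0 and TK1 with 79.5 ± 3.94. DCK followed at 8.62 ± 1.64, SAMHD1 at 2.92 ± 0.472 and RRM2B at 2.55 ± 0.0524. RRM2 and RRM1, RRM1 and DCTPP1, DCTPP1 and TK1, and SAMHD1 and RRM2B were neighbours in this order whose ranges of mean ± SD overlapped. In sh-IUR-5 cells the order changed at its lower end only, where RRM2B (6.21 ± 0.392) stood above SAMHD1 (4.57 ± 0.435) without overlap.

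**Figure D1:**
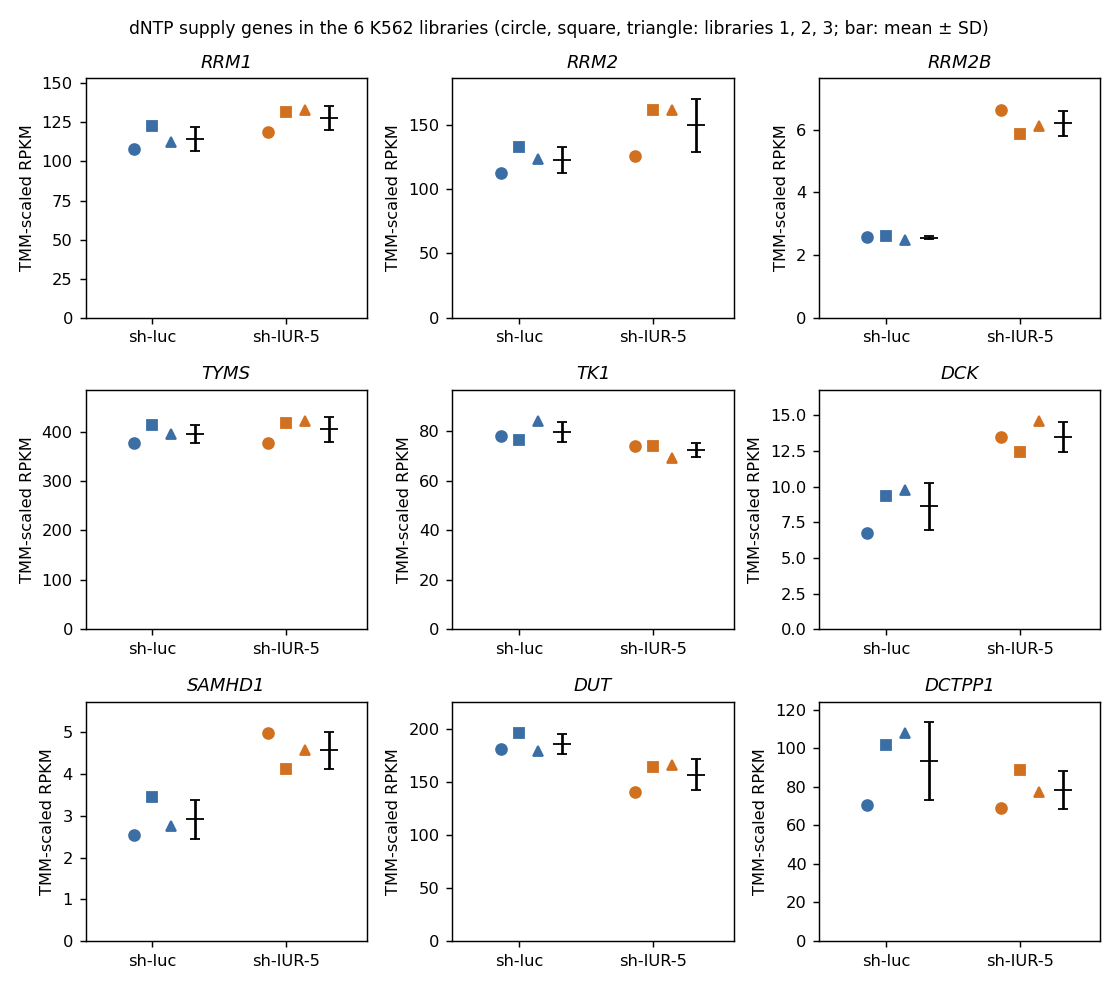
TMM-scaled RPKM (y axis, from 0) of the 9 genes in the 3 sh-luc and 3 sh-IUR-5 libraries, 1 symbol per library, with the mean and SD of each group beside them. RRM2B, DCK and SAMHD1 have no overlap between the groups and are higher in sh-IUR-5, while DUT and TK1 have none and are lower, which holds with TMM scaling but not in the deposited RPKM (log2 fold change with total reads -0.06 for DUT and 0.06 for TK1).

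RRM2B was the member that differed most between the groups. Its level was 2.57, 2.60 and 2.49 TMM-scaled RPKM in sh-luc libraries 1, 2 and 3 and 6.64, 5.88 and 6.11 in sh-IUR-5 libraries 1, 2 and 3. Every sh-IUR-5 library was more than 2-fold above every sh-luc library. These levels rest on 61, 56 and 55 reads in sh-luc and 251, 159 and 167 in sh-IUR-5. The ratio of the mean levels was 2.43. The log2 fold change fitted by edgeR was 1.24 (standard error 0.13), and 37 of the 10392 tested genes with a symbol had a larger one. Its range was 1.17 to 1.28 when each library was left out, and it was 1.44 when libraries were scaled to total reads and 1.08 after removal of trends with coding GC content and length.

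The reads of RRM2B found here lie in 3 rows, which stand for isoforms. The row NP_056528.2 has 1056 bases and the row NP_001165949.1 has 900 bases, as do the coding sequences of the GENCODE transcripts RRM2B-201 and RRM2B-203. The shorter transcript lacks the second coding exon, 156 bases at chr8:102232149-102232304. The third row, NP_001165948.1, has 1272 bases, and no GENCODE coding sequence of the gene has that length.

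Row NP_001165949.1 had 11, 11 and 9 reads under sh-luc and 62, 51 and 58 reads under sh-IUR-5. Its log2 fold change of 1.97 (standard error 0.25) had rank 2 from the top among the 38204 rows tested. Such values were known when the genes were chosen. In sh-luc this row averaged 0.562 TMM-scaled RPKM, against 2.22 in sh-IUR-5, so it met the minimum of 1 only through sh-IUR-5. The same holds for row NP_001165948.1 (0.913 against 1.83). The rank and the calls of both rows are therefore a description only. Row NP_056528.2 had 27, 23 and 20 reads against 86, 53 and 60, with a log2 fold change of 1.01 (standard error 0.20), and row NP_001165948.1 had 23, 22 and 26 against 103, 55 and 49, with 1.03 (standard error 0.22). All 3 rows were thus separated between the groups. Leaving out each library gave 1.89 to 2.05 for NP_001165949.1, 0.93 to 1.08 for NP_056528.2 and 0.80 to 1.16 for NP_001165948.1.

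The share of the RRM2B reads on row NP_001165949.1 does not depend on how libraries are scaled. It was 18.0%, 19.6% and 16.4% in sh-luc and 24.7%, 32.1% and 34.7% in sh-IUR-5 libraries 1, 2 and 3. The groups did not overlap, but the 95% Wilson intervals of single libraries did, since they ran from 8.9% to 31.8% in sh-luc and from 19.8% to 42.2% in sh-IUR-5. These intervals cover counting error only. How reads that fit several rows were assigned is not given in the sources used here, so the 3 rows are not independent measurements.

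**Figure D2:**
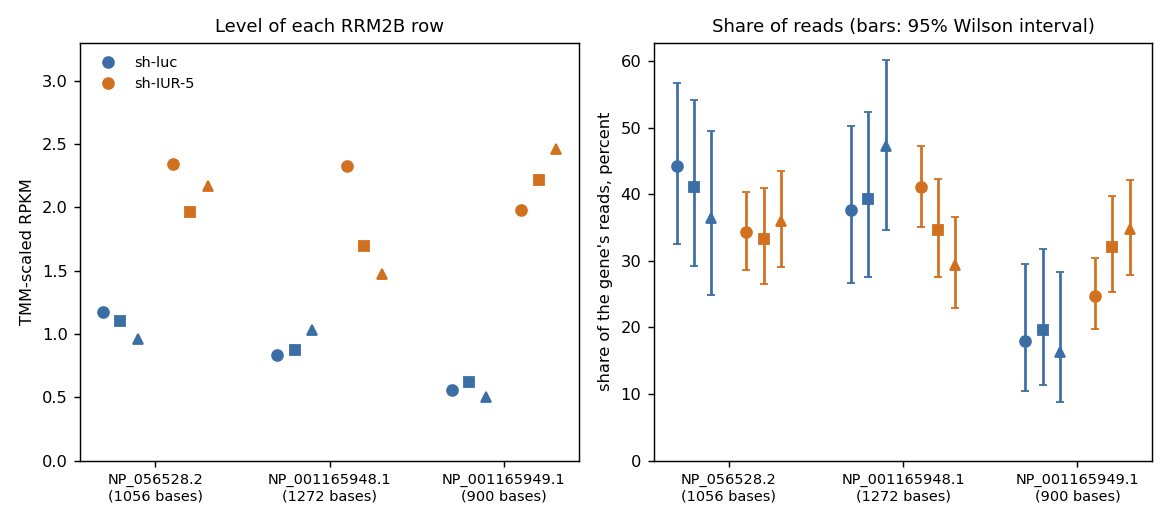
Left, TMM-scaled RPKM of the 3 RRM2B rows in each library. Right, the percent of the gene's reads on each row with 95% Wilson intervals, where row NP_001165949.1 goes from 16.4% to 19.6% in sh-luc to 24.7% to 34.7% in sh-IUR-5.

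The other reductase subunits were far more abundant and differed less than RRM2B. RRM2 had 112, 133 and 123 TMM-scaled RPKM under sh-luc and 125, 162 and 161 under sh-IUR-5. Library 1 of sh-IUR-5 lay within the sh-luc range and the other 2 lay above it. The log2 fold change of RRM2 was 0.29 (standard error 0.098). RRM1 had 108, 123 and 112 in sh-luc and 119, 131 and 133 in sh-IUR-5, again with 1 sh-IUR-5 library inside the sh-luc range, and its log2 fold change was 0.19 (standard error 0.076). In the deposited RPKM both genes were higher in sh-IUR-5 without overlap. The log2 fold changes of RRM2 and RRM1 were 0.48 and 0.39 when scaled to total reads. After removal of the GC and length trends they were 0.19 and -0.09.

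The rows of RRM1 did not move alike. The full-length row NP_001024.1 (2379 bases) had 37.2, 42.1 and 38.6 TMM-scaled RPKM in sh-luc and 47.6, 50.3 and 51.7 in sh-IUR-5, with no overlap and a log2 fold change of 0.35 (standard error 0.076). Row NP_001304993.1 (2088 bases) had 0.13 (standard error 0.082) and row NP_001304994.1 (1365 bases) had -0.02 (standard error 0.083), both with overlapping groups. The full-length row held 42.0% to 42.3% of the RRM1 reads in sh-luc and 46.1% to 47.9% in sh-IUR-5. For RRM2, the longer row NP_001159403.1 held 51.4% to 51.8% in sh-luc and 53.3% to 53.4% in sh-IUR-5.

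Ratios within a library are free of library scaling. RRM2B made up 2.23%, 1.92% and 1.98% of the small-subunit level (RRM2 plus RRM2B) under sh-luc and 5.03%, 3.51% and 3.65% under sh-IUR-5. The highest share was that of sh-IUR-5 library 1, the library with the least RRM2 of its group. The small-subunit level per RRM1 was 1.06, 1.10 and 1.12 in sh-luc and 1.11, 1.27 and 1.26 in sh-IUR-5, with 1 sh-IUR-5 library inside the sh-luc range. The small-subunit transcripts of both groups thus remained almost wholly RRM2.

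Among the thymidylate and salvage genes, DCK was higher and TYMS and TK1 were near level. DCK had 6.74, 9.38 and 9.74 TMM-scaled RPKM in sh-luc and 13.5, 12.5 and 14.6 in sh-IUR-5 libraries. The groups did not overlap, the lowest sh-luc value was that of library 1, and the log2 fold change was 0.65 (standard error 0.13, 115 to 367 reads per library). TYMS had 376, 414 and 396 in sh-luc and 376, 417 and 421 in sh-IUR-5, with a log2 fold change of 0.03 (standard error 0.072). The groups overlapped almost fully, with library 1 the lowest of each, and the log2 fold change was 0.23 when scaled to total reads. TK1 had 78.1, 76.5 and 84.0 in sh-luc and 73.9, 73.9 and 69.0 in sh-IUR-5, without overlap, and its log2 fold change was -0.14 (standard error 0.076), which turned to 0.06 when scaled to total reads and to 0.04 after removal of the trends. The level of TK1 per DCK was 8.16 to 11.6 in sh-luc and 4.73 to 5.94 in sh-IUR-5 libraries, with no overlap. This ratio is not free of the trend with coding GC content, which is 61.5% for TK1 and 42.2% for DCK. After removal of the trends the log2 fold changes were 0.04 and 0.54.

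Among the enzymes that remove dNTPs, SAMHD1 was higher and DUT was lower. SAMHD1 had 2.54, 3.45 and 2.77 TMM-scaled RPKM in sh-luc and 4.99, 4.12 and 4.59 in sh-IUR-5 libraries, without overlap, from 103 to 327 reads per library. Its log2 fold change was 0.65 (standard error 0.13). DUT had 182, 196 and 179 in sh-luc and 140, 164 and 166 in sh-IUR-5. These groups did not overlap after TMM scaling but did in the deposited RPKM, and the log2 fold change of -0.25 (standard error 0.082) became -0.06 when scaled to total reads. DCTPP1 had 70.6, 102 and 108 in sh-luc and 68.9, 88.5 and 77.3 in sh-IUR-5, with overlap and a log2 fold change of -0.26 (standard error 0.13), which was -0.06 when scaled to total reads and 0.02 after removal of the trends. It ran from -0.14 without sh-luc library 3 to -0.42 without sh-luc library 1, where it passed the threshold, as it did in 3 other alternatives.

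The 3 rows of DUT differ at their start. The 759-base row NP_001020419.1, which stands for the mitochondrial form, had a log2 fold change of -0.35 (standard error 0.090), against -0.18 (standard error 0.085) for the 495-base row NP_001939.1 of the nuclear form and -0.27 (standard error 0.10) for the 426-base row NP_001020420.1. The groups did not overlap in any of these rows. The mitochondrial row held 30.2% to 31.9% of the DUT reads in sh-luc and 27.8% to 30.3% in sh-IUR-5 libraries, with overlap. TYMS per DUT, the enzyme that uses dUMP set against the one that makes it from dUTP, was 2.07, 2.11 and 2.21 in sh-luc and 2.68, 2.53 and 2.54 in sh-IUR-5. Removal of the GC and length trends moved the log2 fold change from 0.03 to 0.06 for TYMS and from -0.25 to -0.09 for DUT.

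The quasi-likelihood test of edgeR, adjusted over all features by Benjamini-Hochberg, passed 0.05 for 4 of the 9 genes as higher (RRM2, RRM2B, DCK and SAMHD1) and for 1 as lower (DUT). Among the 10392 tested genes with a symbol 48.5% passed, 26.0% as higher and 22.5% as lower, and among all 22162 features, single unnamed rows included, 40.4% passed, 20.7% as higher and 19.7% as lower. All 9 genes met the minimum level. The median log2 fold change was 0.19 over the 9 genes and 0.02 over the tested genes with a symbol. Groups did not overlap in 3 members that were higher and 2 that were lower, against 30.0% and 26.3% of these genes and 26.1% and 24.9% of all features. Of the 16 rows, 7 passed as higher and 2 as lower, against 19.2% and 18.1% (37.3% in both directions) of all 38204 rows tested. Since the set was chosen on this contrast, nothing is read from these counts.

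Some of these calls changed with the setting. RRM2 was not past the threshold without sh-luc library 1 (log2 fold change 0.23) or 3 (0.29), without sh-IUR-5 library 2 (0.23) or 3 (0.23), or after removal of the GC and length trends (0.19). DUT was not past it without sh-luc library 2 (-0.22) or sh-IUR-5 library 1 (-0.17), when scaled to total reads (-0.06), after removal of the trends without (-0.09) or with the replicate number as a block (-0.09), with 1 row kept per gene (-0.16), in limma on log2(RPKM + 0.1) (-0.05) or at a minimum of 5 RPKM (-0.18). RRM1 was past it in 8 of 18 alternatives, among them total reads (0.39), which moved the median of all tested features from 0.01 to 0.21.

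**Figure D3:**
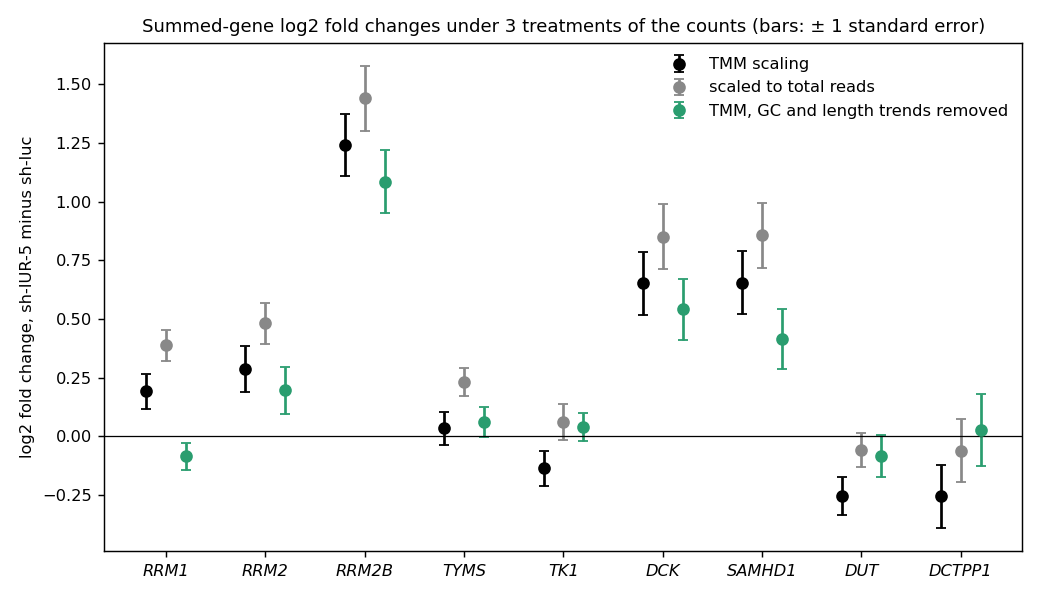
Log2 fold change, sh-IUR-5 minus sh-luc, of the 9 summed genes with 1 standard error, after TMM scaling (black), scaling to total reads (grey) and TMM scaling with GC and length trends removed (green). RRM2B, DCK and SAMHD1 lie above 0 in all 3, while RRM1, TK1 and DCTPP1 change sign in at least 1.

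Coding GC content moved with the fold changes across all genes. The 10274 genes with a known coding sequence were put in 10 classes of rising GC content, and the median log2 fold change was 0.17 in the lowest class (median 39.5% GC) and -0.14 in the highest (66.4% GC). RRM1, DCK, SAMHD1 and RRM2B had 43.1%, 42.2%, 43.3% and 45.4% GC, and TK1, DUT and DCTPP1 had 61.5%, 59.4% and 62.2%. RRM1 lay near the median of genes within 2 percentage points of its GC content, which was 0.17, and after removal of the trends its log2 fold change was -0.09 (standard error 0.059). Of the genes within 2 percentage points of the GC content of RRM2B, 0.499% had a higher log2 fold change. RRM2B was chosen by such values in these libraries, so this is a description only. After removal of the trends DCK kept 0.54 (standard error 0.13) and SAMHD1 kept 0.42 (standard error 0.13). The part of GC content in the single values was not tested beyond this.

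In the column labels, libraries 2 and 3 of either group share a first number (2) and library 1 carries another. That number is called the series here, but the labels do not say what it stands for. They also do not say whether libraries 2 and 3 come from separate cultures. The p-values count the 3 libraries of a group as independent. RRM2 was 1.14 times as high in series 2 as in series 1 within sh-luc and 1.29 times as high within sh-IUR-5. Within series 1, with 1 library a group and so no spread, the ratio of sh-IUR-5 to sh-luc was 1.12 for RRM2, 1.10 for RRM1, 2.59 for RRM2B, 2.0 for DCK, 1.97 for SAMHD1 and 0.773 for DUT. Within series 2, with 2 libraries a group, it was 1.26, 1.12, 2.35, 1.41, 1.40 and 0.880. The direction was the same in both series for these 6 genes and for TK1 (0.946 and 0.891) and DCTPP1 (0.976 and 0.791), while TYMS had 1.00 and 1.03. When edgeR also fitted the series, 7 of the 9 genes passed the threshold, RRM1 as higher and DCTPP1 as lower in addition. In that fit 11262 of all 22162 features passed, against 8950 without the series.

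The rest of the pathway was read from 38 further genes in 4 lists, of which 37 were tested. Of these, 5 were higher and 14 lower past the same threshold in edgeR, with a median log2 fold change of -0.16 against 0.02 over all tested genes with a symbol. When scaled to total reads the split was 13 higher and 11 lower, where over all 22162 features tested it was 8081 higher and 2070 lower in place of 4577 and 4373. CDA, the cytidine deaminase that inactivates cytarabine, had no read in any library, which allows up to 3 reads in each.

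Nucleotide kinases, which carry monophosphates on to triphosphates, had 2 members higher, 6 lower and 4 not past the threshold (66.7% past it, against 48.5% of tested genes with a symbol), and 4 higher and 4 lower when scaled to total reads. Their median log2 fold change was -0.27, or -0.03 after removal of the GC and length trends, where 2 were higher and 4 lower. CMPK2, a mitochondrial UMP-CMP kinase, rose from 6.54, 6.10 and 6.33 TMM-scaled RPKM to 11.2, 10.4 and 9.86 (log2 fold change 0.73, standard error 0.10, adjusted p = 6.51e-05), and AK4, a mitochondrial adenylate kinase, rose by 0.29 on the log2 scale (adjusted p = 0.0182). AK4 was not past the threshold without sh-luc library 3 (log2 fold change 0.27), without sh-IUR-5 library 2 (0.26) or 3 (0.27), or with no minimum (0.25). DTYMK, the kinase that turns dTMP into dTDP, fell from 144, 135 and 151 to 101, 103 and 94.5 (log2 fold change -0.52, standard error 0.075, adjusted p = 9.88e-05). NME2, a nucleoside diphosphate kinase, had a log2 fold change of -0.61 (adjusted p = 1.36e-05) and stands as uncertain, since reads of its close copy NME1 and of their read-through transcript could be counted on it.

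Dephosphorylation and clean-up genes had 1 member higher, 6 lower and 2 not past the threshold (77.8% past it, against 48.5%), and 3 higher and 6 lower when scaled to total reads. Their median log2 fold change was -0.47, or -0.23 after removal of the GC and length trends. TYMP, which cleaves thymidine, fell from 6.61, 6.73 and 8.07 TMM-scaled RPKM to 4.39, 4.26 and 3.50 (log2 fold change -0.81, standard error 0.12, adjusted p = 0.000164). NUDT1 (MTH1), which removes oxidized purine dNTPs, fell from 90.9, 81.9 and 93.7 to 56.1, 59.4 and 50.3 (log2 fold change -0.69, standard error 0.089, adjusted p = 4.32e-05). NT5C2, a cytosolic nucleotidase, was the member that rose, by 0.67 on the log2 scale from 48 to 49 reads to 99 to 118 (adjusted p = 0.00322). The direction of these 3 genes held in every alternative in which they were tested.

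Salvage and transport genes had 1 member higher, 1 lower and 7 not past the threshold (22.2% past it, against 48.5%). SLC25A36, a mitochondrial pyrimidine nucleotide carrier, rose by 0.62 on the log2 scale (standard error 0.11, adjusted p = 0.000668). DGUOK, the mitochondrial kinase for purine deoxynucleosides, fell by 0.28 on the log2 scale (log2 fold change -0.28, adjusted p = 0.0101), but its value was -0.08 (adjusted p = 0.40) when scaled to total reads, and it was not past the threshold without sh-luc library 3 (-0.22), in limma (-0.09) or with 1 row per gene (-0.20). TK2, the mitochondrial counterpart of TK1, had 11.3, 9.13 and 9.81 TMM-scaled RPKM under sh-luc and 10.5, 9.62 and 9.93 under sh-IUR-5, with overlap.

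Thymidylate and folate genes had 1 member higher, 1 lower and 5 not past the threshold (28.6% past it, against 48.5%). MTHFD2, a mitochondrial folate enzyme, fell from 57.9, 56.6 and 50.4 TMM-scaled RPKM to 44.7, 35.0 and 37.0 (log2 fold change -0.49, standard error 0.098, adjusted p = 0.00131). It kept its direction and its call in all 18 alternatives, those with another scaling included.

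Since RRM2, TYMS, TK1 and DUT are transcribed with S phase, 22 replication genes outside dNTP supply were set beside them. Of these, 4 were higher (CCNA2, MCM4, and POLA1 and MCM2, which are named here after their values were seen), none was lower and 18 were not past the threshold, with a median log2 fold change of 0.12. That is 18.2% past the threshold, against 48.5% of tested genes with a symbol, and 11 were higher and none lower when scaled to total reads. CCNA2, the S-phase cyclin A2, rose from 145, 156 and 144 TMM-scaled RPKM to 200, 198 and 208 (log2 fold change 0.45, standard error 0.069, adjusted p = 0.000173). MCM4, a subunit of the replicative helicase, rose from 66.5, 83.1 and 79.9 to 85.2, 115 and 117 (log2 fold change 0.47, standard error 0.11, adjusted p = 0.00461), and library 1 was the lowest of each group, as for RRM2. After removal of the GC and length trends MCM4 was no longer past the threshold (log2 fold change 0.25, adjusted p = 0.128), the median of the list was -0.03 and 1 gene was higher and 2 lower, and with the series term 11 were higher and 6 lower. Without sh-IUR-5 library 1, 12 were higher and none was lower. Over all 22162 features, 8081 were higher and 2070 lower with total reads, and 5709 and 5553 with the series term. Without sh-IUR-5 library 1 these counts were 4346 and 4258. After removal of the trends they were 2130 and 2561 of 10274 genes. In bulk RNA, fewer or more cells in S phase and less or more RNA per cell cannot be told apart. Cell cycle profiles measured by flow cytometry in the paper did not differ significantly between K562 lines with lncRNA-IUR knocked down and control lines.

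As RRM2B is known as a p53 target, 18 other p53 targets were read. Of the 13 tested, 3 were higher and 3 lower past the threshold (46.2% past it, against 48.5% of tested genes with a symbol), and 5 were higher and 2 lower when scaled to total reads. TP53INP1 had 15, 7 and 15 reads in sh-luc libraries and 45, 27 and 35 in sh-IUR-5 libraries, with a log2 fold change of 1.03 (standard error 0.28). Its mean level was 0.914 TMM-scaled RPKM in sh-luc and 1.88 in sh-IUR-5, so only sh-IUR-5 brought it over the minimum of 1. Its call, counted among the 3 higher, is therefore a description only. MDM2, the ubiquitin ligase of p53, rose from 4.44, 4.80 and 3.24 TMM-scaled RPKM to 5.99, 6.18 and 6.66 (log2 fold change 0.63, standard error 0.14, adjusted p = 0.00223). FDXR, a mitochondrial ferredoxin reductase, fell by 0.57 on the log2 scale (log2 fold change -0.57, standard error 0.077, adjusted p = 5.58e-05) and TP53I3 by 0.53 (log2 fold change -0.53, standard error 0.11, adjusted p = 0.0021), though TP53I3 was just short of the threshold in limma (-0.30, adjusted p = 0.0502). CDKN1A (p21), the classical p53 target, had 1 to 12 reads per library and lay under the minimum.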

How the data were processed

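RNA-seq was done on 3 sh-IUR-5 and 3 sh-luc libraries of K562 cells, and groups and replicate numbers were taken from the sample titles. Per the study's methods, reads were trimmed, masked and mapped, and the submitters' processing notes name CASAVA 1.8, Trimmomatic 0.32, Bowtie2 2.1.0, SAMtools 0.1.19 and hg38. The authors deposited raw read counts per RefSeq protein accession, and RPKM that equal reads per row length and per library total. A deposited table of the authors' comparison (pooled counts and RPKM, fold changes, p and q values) was not used. Row lengths were deposited in bases, and are coding lengths.

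Symbols came from the RefSeq gene list of GRCh38.p14, which named 64.7% of the rows. Rows of a gene were summed, and unnamed rows stayed single. Any row of the 9 members among the unnamed rows could not be found and is missing from the sums and shares. Summed genes (22162) and rows (38204) with a mean RPKM of at least 1 were tested with edgeR 4.0.16 (R 4.3.3, TMM scaling, quasi-likelihood test, two-sided, Benjamini-Hochberg adjustment over all tested, threshold 0.05). TMM factors were 0.926 to 0.942 in sh-luc and 1.05 to 1.11 in sh-IUR-5. The biological coefficient of variation was 8.29%. Alternatives used DESeq2 1.42.0, limma 3.58.1 on log2(RPKM + 0.1) and mgcv 1.9.3 for trends on GC content and length. Steps were tested on simulated data. Libraries of a group differed beyond sampling noise, so none repeated the reads of another, and all 6 were kept. Such a difference cannot tell separate cultures from separate preparations of the same culture, so the independence of the libraries was not tested. The p-values measure the spread between these libraries. Named genes were the 9 members, the 2 largest rises and falls past the threshold without overlap in each list, and TK2, DGUOK, CDKN1A and MDM2 whatever their values. Some genes that this rule or a list holds are not reported here. POLA1 and MCM2 were named to complete a count. The members and lists were chosen with earlier results of these data known.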

Additional observations from a re-analysis of the deposited data

How the results depend on the processing

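At a minimum of 5 RPKM, 5659 summed genes, 7357 rows and 3 of the 7 members still tested passed the threshold, in place of 8950, 14259 and 5. Fewer features were tested there, RRM2B and SAMHD1 no longer among them, while DUT lost its call (-0.18) and RRM1 gained one (0.26). Of the 10274 genes with known coding GC content (chosen after seeing the data as the base of the trend removal), 4905 passed, 4691 after removal of the trends and 5849 with the replicate block in addition, and 3 members passed after removal of the trends. Of the S-phase genes, 4 passed with TMM scaling, 11 when scaled to total reads, 10 with no minimum, 8 at a minimum of 5 RPKM, 13 with the replicate block, 17 with the series term, 10 in limma, 8 with 1 row per gene and 14 with trends removed and the replicate block. In that last fit 10 p53 targets passed in place of 6. The cause was not tested. Leaving out each library gave 7158 to 8604 summed genes, 11210 to 13582 rows, 4 to 5 members, 17 to 23 other pathway genes, 3 to 12 S-phase genes and 6 to 7 p53 targets. The lowest S-phase count was that without sh-IUR-5 library 3 and the highest that without sh-IUR-5 library 1. Same-numbered libraries were not treated as pairs, since their deviations correlated by 0.34, 0.098 and -0.011. Across the groups, libraries of the same series, in the sense given above, correlated by -0.011 to 0.34 and those of different series by -0.29 to -0.085. With the replicate number as a block, 10704 summed genes, 16837 rows, 7 members, 23 other pathway genes and 6 p53 targets passed. With the series term, 11262 summed genes, 17918 rows, 7 members, 26 other pathway genes and 7 p53 targets passed. The main fit holds neither term, so its spread takes in the difference between the series. RRM2B rests on 55 to 251 reads per library, which limits its row shares.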

Other observations

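Over the 6 libraries, and with each gene set to its own sh-luc mean, the genes with a symbol whose pattern lay nearest to that of RRM2B were CPD, YTHDF3 and EFR3A, with root-mean-square differences of 0.069, 0.082 and 0.083 in log2 normalized counts. Their log2 fold changes were 1.25, 1.24 and 1.16. Nearest to RRM2 were SRSF6, TFB2M and ERCC6L, with differences of 0.023, 0.036 and 0.037 and log2 fold changes of 0.28, 0.29 and 0.32. These genes were picked for their likeness in the same libraries, so the values are a description.

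RRM1 per SAMHD1, a producer of deoxynucleotides set against the enzyme that cleaves dNTPs, was 42.6, 35.7 and 40.6 under sh-luc and 23.8, 31.9 and 29.0 under sh-IUR-5, with no overlap and free of library scaling. RRM2 per SAMHD1 was 44.2, 38.5 and 44.6 against 25.1, 39.2 and 35.1, with overlap through sh-IUR-5 library 2. DUT per DCTPP1 was 2.57, 1.93 and 1.66 against 2.04, 1.86 and 2.15, with overlap. RRM2 per PCNA was 0.362, 0.323 and 0.325 in sh-luc and 0.431, 0.397 and 0.386 in sh-IUR-5, without overlap. PCNA is 1 of the 22 S-phase genes and was itself near level (log2 fold change 0.02). The list ran from -0.21 to 0.47, with RRM2 at 0.29 inside that range, so the ratio speaks for PCNA alone. Transcript ratios say nothing of the protein levels or of the dNTP pools, which were not measured here.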
